A study of Mus musculus with 6 samples.

Results

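The acute phase response genes described here are 36 mouse genes, matched by their symbols among the 16426 genes listed in at least 1 of 6 liver RNA-seq libraries. They encode positive acute phase proteins of the liver together with parts of the interleukin-6 (IL-6) and interleukin-1 (IL-1) pathways. All 36 symbols were found, and 35 passed the filter on low counts; the antiprotease gene Serpina3c did not. Of the libraries, 3 came from livers of mice given shRNA-S1PR2, a short hairpin RNA against the receptor for sphingosine-1-phosphate, and 3 from mice given shRNA-Scramble; they are called S1pr2 shRNA livers and scramble livers. Both hairpins were carried by AAV8, a vector that reaches mainly hepatocytes in mice, injected through the tail vein. The mice were on a mixed B6:sv129 background and 7 to 12 weeks old. Per the series text both groups were male and drank dexamethasone, a synthetic glucocorticoid, at about 0.84 mg/kg for 7 days. The sample labels name the hairpin only, and no group without dexamethasone was analysed here. Each library held 16558775 to 17410160 expected counts (estimated fragments per gene, not scaled to depth) and listed 14522 to 15106 genes. Whether each library came from another mouse is not in the labels; p-values here measure the spread between libraries, which may be technical. No library was a copy of another: over the 15 pairs the chi-square per degree of freedom was 21.5 to 207.

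In the acute phase response, macrophages and other cells release IL-6, IL-1 and tumour necrosis factor, and hepatocytes answer by changing which plasma proteins they make. IL-6 binds its receptor Il6ra, signals through gp130 (Il6st) and activates the transcription factor Stat3, which also induces the brake Socs3; IL-1 acts through Il1r1 and the NF-kB and C/EBP factors. Positive acute phase genes are those whose plasma proteins rise, such as serum amyloid A, haptoglobin and the antiproteases, and glucocorticoids are known to strengthen the induction of several of them.

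Promoters of some of the genes are shown with the sequence motifs of these pathways. The choice is not the set of genes that passed the test: Orm2 did not pass, and Crp, which fell, is not printed. RefSeq windows on build GRCm38.p6, from 250 bases before to 50 bases after the transcription start (300 bases), were given for 31 of the 36 genes; Orm1, Hp, Serpina3k, Lbp and Serpina3m had no entry. The motifs searched on both strands were TTGCNNAA (C/EBP), TTCNNNGAA (STAT), ACANNNTGT (glucocorticoid receptor) and GGGA and CC parted by any 4 bases (NF-kB). The set comprises Orm2 and Orm3, the neighbouring orosomucoid genes with the lowest fold changes among the 35, and Steap4, which rose; all are on the + strand, 5′ to 3′, with capitals for motif matches.

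Orm2, chr4:63362199-63362498: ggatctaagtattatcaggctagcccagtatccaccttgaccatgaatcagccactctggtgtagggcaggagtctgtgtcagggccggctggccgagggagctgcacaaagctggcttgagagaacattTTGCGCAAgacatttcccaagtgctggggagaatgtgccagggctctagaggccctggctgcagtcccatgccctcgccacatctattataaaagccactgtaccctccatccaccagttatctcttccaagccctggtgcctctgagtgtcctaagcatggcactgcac

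Orm3, chr4:63355908-63356207: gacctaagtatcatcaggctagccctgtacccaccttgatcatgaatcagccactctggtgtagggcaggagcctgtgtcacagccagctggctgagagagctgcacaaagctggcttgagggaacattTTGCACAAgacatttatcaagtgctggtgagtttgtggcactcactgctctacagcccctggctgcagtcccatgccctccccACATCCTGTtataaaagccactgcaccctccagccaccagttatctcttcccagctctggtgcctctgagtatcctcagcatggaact

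Steap4, chr5:7960222-7960521: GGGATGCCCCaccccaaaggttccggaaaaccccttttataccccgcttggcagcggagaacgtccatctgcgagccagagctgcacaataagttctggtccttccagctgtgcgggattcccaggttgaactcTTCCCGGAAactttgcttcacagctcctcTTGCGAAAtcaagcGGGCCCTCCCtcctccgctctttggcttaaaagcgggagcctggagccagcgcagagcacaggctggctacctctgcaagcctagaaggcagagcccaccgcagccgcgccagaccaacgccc

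In Orm2 the C/EBP match TTGCGCAA began 120 bases before the start, and in Orm3 the match TTGCACAA began 121 bases before it. Over 295 aligned bases the Orm2 and Orm3 windows were 89.2% identical. The glucocorticoid receptor match ACATCCTGT lay 38 bases before the Orm3 start; the Orm2 window had none. Steap4 held a STAT match, TTCCCGGAA, 116 bases before the start, a C/EBP match, TTGCGAAA, 87 bases before it, and NF-kB matches 250 bases (GGGATGCCCC) and 73 bases (GGGCCCTCCC, read on the reverse strand) before it. The window of Crp, which fell, held no match to any of these motifs. A C/EBP match was present in at least 1 window of 17 of the 31 genes (54.8%), against 12.2% of the 27025 genes with a window. The 17 include Saa1, Saa2, Saa3, Saa4, Orm2, Orm3, Serpina1a, Serpina1b, Serpina1d and Serpina1e, so members of the same gene families are counted separately. The glucocorticoid receptor motif was found in 7 of 31 (22.6%, against 7.9%), the STAT motif in 6 of 31 (19.4%, against 9.55%) and the NF-kB motif in 6 of 31 (19.4%, against 22.9%). A match describes these letters only, and no binding was measured.

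Transcript levels differed widely between the genes. On the deposited FPKM scale, which is scaled by transcript length and by depth, the mean over 6 livers ran from 16332 FPKM for Serpina3k, a serpin of the antichymotrypsin family, to 0.362 FPKM for its neighbour Serpina3c. Next to Serpina3k were the alpha-1-antitrypsin genes Serpina1c (10127 FPKM), Serpina1b (6995 FPKM) and Serpina1a (5184.5 FPKM), and then haptoglobin, Hp (2347 FPKM). In all, 11 genes averaged at least 1000 FPKM, 11 between 100 and 1000, 8 between 10 and 100 and 6 under 10 FPKM. The fibrinogen genes were in the first band and the signalling genes Il1r1, Il6ra, Socs3 and Il1rn in the last. The 36 genes together held 7.45, 8.35 and 7.88% of all expected counts in S1pr2 shRNA livers 1 to 3, against 7.86, 11.1 and 9.34% in scramble livers 1 to 3.

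**Figure D1:**
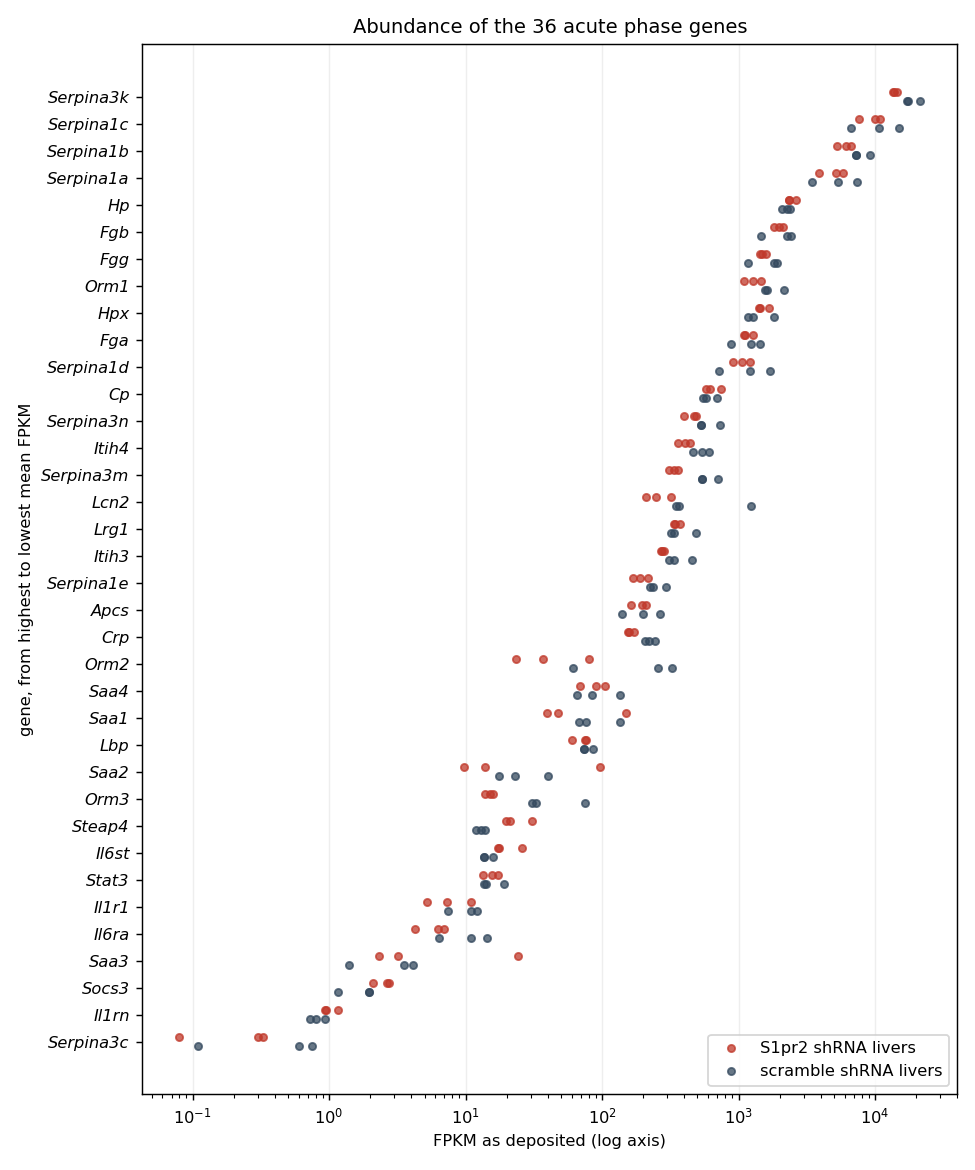
Deposited FPKM (log axis) of the 36 acute phase genes, 1 row per gene in order of the mean over all livers, with 1 point per liver for S1pr2 shRNA (upper points of a row) and scramble (lower points) livers. Serpina3k led at a mean of 16332 FPKM and Serpina3c was last at 0.362 FPKM; the points of Saa2 and Saa3 spread widest within the S1pr2 shRNA group.

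The targeted gene S1pr2 (Entrez gene 14739) checks the labels. It stood at 3.035, 2.205 and 2.225 CPM in S1pr2 shRNA livers 1 to 3, against 4.41, 5.23 and 6.66 CPM in scramble livers 1 to 3. Every S1pr2 shRNA liver lay below every scramble liver (log2 fold change -1.12, SE 0.24, adjusted p in edgeR = 0.0301; quasi-likelihood test, Benjamini-Hochberg adjustment over 12230 genes). The values came from 60, 36 and 38 counts in the S1pr2 shRNA livers and 72, 84 and 110 in the scramble livers, and the call was lost without S1pr2 shRNA liver 2 (adjusted p = 0.117), S1pr2 shRNA liver 3 (0.101), scramble liver 2 (0.0785) or scramble liver 3 (0.0962) in edgeR.

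Most acute phase genes were lower in the S1pr2 shRNA livers, but few passed the test. Crp, Orm3 and Serpina3m fell, Steap4 rose, and 31 of the 35 tested genes did not pass. Crp encodes C-reactive protein, Orm3 an alpha-1-acid glycoprotein, Serpina3m an antiprotease and Steap4 a metalloreductase. The 4 called genes are 11.4% of the 35, against 7.66% of all 12230 genes tested. The 3 falls are 8.57%, against 4.64% of all genes, and the 1 rise is 2.86%, against 3.02%. At an unadjusted p under 0.05 there were 13 genes below and 2 above, 42.9% of the 35, against 24.5% of all genes. Of the 35, 29 (82.9%) had a log2 fold change below 0 and 6 above it. Of all 12230 genes tested, 5944 were below 0 and 6282 above it. The median of the 35 was -0.29, against 0.01 over all genes tested. These tallies count similar copies of a gene family, between which reads are split, as separate genes. With the serum amyloid A (Saa1 and Saa2), orosomucoid, Serpina3 and Serpina1 copies each summed, 26 features were tested. Of these 2 fell and 1 rose in edgeR, with a median of -0.252. The livers of the groups did not overlap in 16 of the 35 (45.7%, against 31.9% of all genes): 13 were lower in all S1pr2 shRNA livers (37.1%, against 16.8%) and 3 higher (8.57%, against 15.1%). The number of falls depended on single livers and on the tool: edgeR gave 0 without S1pr2 shRNA liver 2 or S1pr2 shRNA liver 3, and the DESeq2 Wald test gave 10. Over all 12230 genes DESeq2 also called more falls, 850 against 568 by edgeR.

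**Figure D2:**
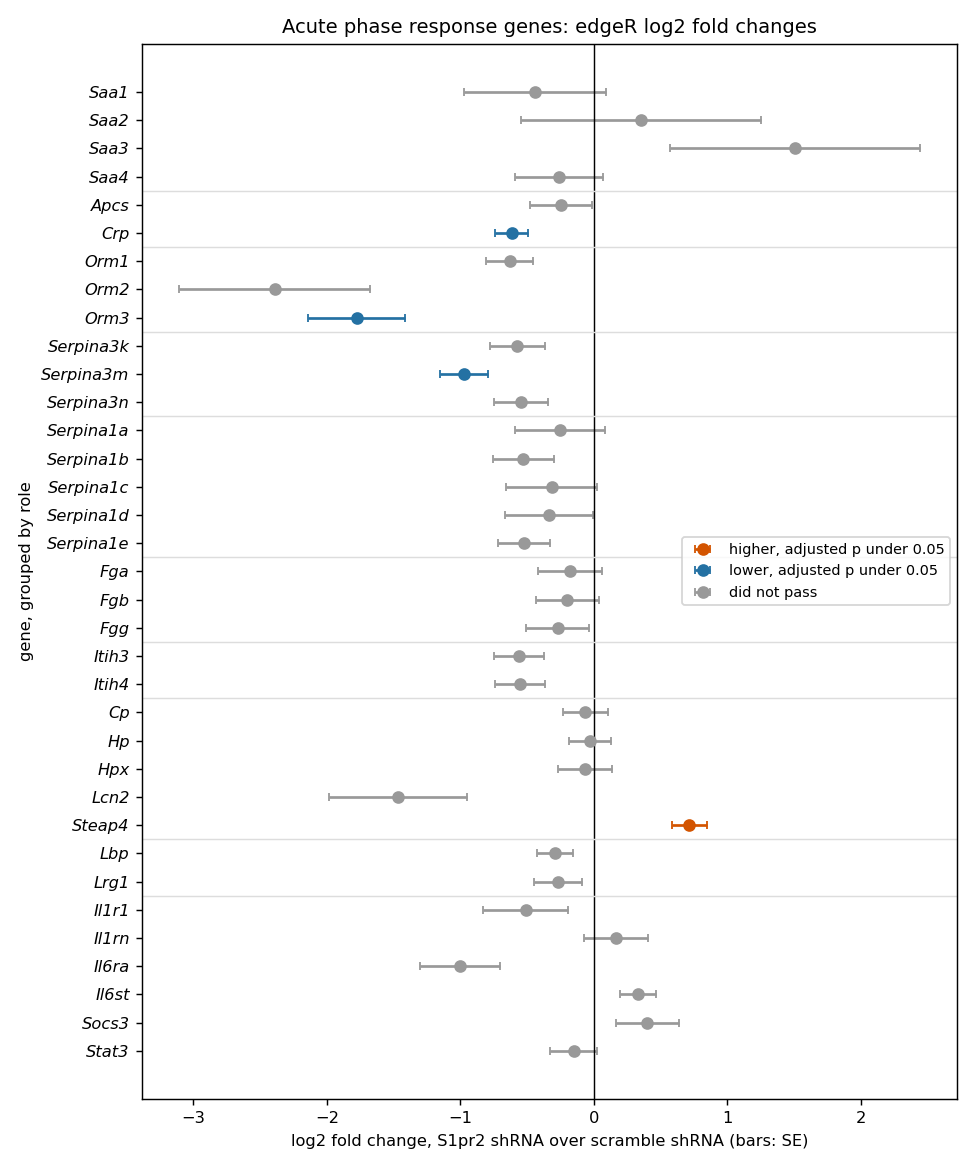
The edgeR log2 fold changes (S1pr2 shRNA over scramble, n = 3 each; bars are SE) of the 35 tested acute phase genes, grouped by role and coloured by call at an adjusted p under 0.05. Points lie below 0 for 29 genes and above 0 for 6; Crp, Orm3 and Serpina3m passed below 0 and Steap4 above it.

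The cytokine receptors and signalling genes did not pass in edgeR, and they lay on both sides of 0. Of the 6 genes 0 passed; at an unadjusted p under 0.05 there were 1 below 0, Il6ra, and 1 above it, Il6st. Il6ra, the IL-6 binding chain that hepatocytes display, had 20.4, 21.5 and 14.05 CPM in S1pr2 shRNA livers 1 to 3, against 50.3, 23.3 and 38.4 CPM in scramble livers 1 to 3. The highest S1pr2 shRNA liver was just under the lowest scramble liver, scramble liver 2 (log2 fold change -1.0, SE 0.30, adjusted p in edgeR = 0.101). Without scramble liver 2 the log2 fold change was -1.26 and passed (edgeR adjusted p = 0.0324). With each of the other livers left out it did not pass. The weakest log2 fold change with 1 liver left out was -0.728, and the highest edgeR adjusted p was 0.2166. Il6ra also passed in the DESeq2 Wald test.

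Il6st, the gp130 chain that passes the signal on, had 124, 97.4 and 94.0 CPM in S1pr2 shRNA livers 1 to 3, against 91.35, 81.3 and 78.9 CPM in scramble livers 1 to 3. All S1pr2 shRNA livers were higher than all scramble livers (log2 fold change 0.33, SE 0.14, adjusted p in edgeR = 0.186). Stat3, the transcription factor below gp130, had 52.8, 71.65 and 76.3 CPM in S1pr2 shRNA livers 1 to 3, against 89.4, 67.1 and 66.5 CPM in scramble livers 1 to 3. These groups overlapped, with S1pr2 shRNA liver 1 lowest and scramble liver 1 highest of the 6 (log2 fold change -0.15, SE 0.17, adjusted p in edgeR = 0.655). Socs3, the feedback inhibitor that Stat3 induces, had 6.58, 5.88 and 7.14 CPM in S1pr2 shRNA livers 1 to 3, against 3.31, 5.85 and 5.69 CPM in scramble livers 1 to 3. It was a low transcript and scramble liver 1 stood under the other two scramble livers, while the groups did not overlap (log2 fold change 0.40, SE 0.23, adjusted p in edgeR = 0.340).

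Il1r1, the signalling receptor for IL-1, had 30.6, 53.3 and 24.3 CPM in S1pr2 shRNA livers 1 to 3, against 54.6, 38.5 and 61.0 CPM in scramble livers 1 to 3. The groups overlapped, since S1pr2 shRNA liver 2 was within the scramble range (log2 fold change -0.51, SE 0.32, adjusted p in edgeR = 0.390). Il1rn, which encodes the natural antagonist of that receptor, was at 2.37 ± 0.130 CPM in S1pr2 shRNA and 2.12 ± 0.2905 CPM in scramble livers (SD, n = 3 each) and did not pass (log2 fold change 0.17, SE 0.24, adjusted p in edgeR = 0.731).

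Of the ligands, IL-6 itself was almost undetected. Il6 had 0, 0 and 1 counts in S1pr2 shRNA livers 1 to 3 and 0, 1 and 1 counts in scramble livers 1 to 3, and it, Il11, Lif, Osm and Clcf1 were under the count filter. Il1b, the ligand that macrophages release, had 16, 13 and 20 counts in S1pr2 shRNA livers, against 5, 30 and 15 counts in scramble livers. At the counts of Il6 a difference between the groups could not be detected, and the groups overlapped in Il1b. Of 28 tested genes of a wider IL-6 and gp130 list, 1 rose (3.02% of all genes did), 0 fell (0 also by DESeq2, limma-voom and limma on FPKM) and 27 did not pass; at an unadjusted edgeR p under 0.05 there were 6 above 0 and 2 below it, with a median of 0.02. The riser was Bcl3, an NF-kB cofactor, at 38.7 ± 3.39 CPM in S1pr2 shRNA and 20.7 ± 6.52 CPM in scramble livers (SD, n = 3 each; a log2 fold change of 0.90 with SE 0.21 and an edgeR adjusted p of 0.0433). Of 32 tested genes of an IL-1, TNF and NF-kB list, 2 were above and 1 below 0 at an unadjusted edgeR p under 0.05. By DESeq2 2 rose and 1 fell. At the edgeR adjusted p 0 rose, 1 fell (4.64% of all genes did) and 31 did not pass, with a median of 0.03. The faller was Tollip, an adaptor that restrains IL-1 receptor signalling, at 31.1 ± 1.54 CPM in S1pr2 shRNA and 47.3 ± 1.48 CPM in scramble livers (SD, n = 3 each; a log2 fold change of -0.61 with SE 0.09 and an edgeR adjusted p of 0.0103). Il6ra, Il6st, Stat3, Socs3, Il1r1 and Il1rn are not in these counts.

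The serum amyloid A genes, lipoprotein-bound proteins that are the most inducible of the mouse acute phase, did not pass (0 of 4 at an adjusted or an unadjusted p under 0.05 in edgeR, 0 by DESeq2), and in 3 of them S1pr2 shRNA liver 1 stood above the rest of its group. All 4 had fractional counts in all libraries. Saa1 had 75.3, 23.3 and 26.8 CPM in S1pr2 shRNA livers 1 to 3, against 81.1, 42.75 and 46.4 CPM in scramble livers 1 to 3. Liver 1 was the highest of its group on both sides, and the groups overlapped (log2 fold change -0.44, SE 0.53, adjusted p in edgeR = 0.684). Saa2, which shares 95.1% of its coding sequence with Saa1, had 48.9, 5.75 and 7.94 CPM in S1pr2 shRNA livers 1 to 3, against 24.1, 14.5 and 10.8 CPM in scramble livers 1 to 3. Here S1pr2 shRNA liver 1 was the highest and the other two S1pr2 shRNA livers the lowest of all 6 (log2 fold change 0.35, SE 0.90, adjusted p in edgeR = 0.8585). Saa3, made in mice also by macrophages and fat cells and given here after its values were seen, had 10.7, 1.2 and 1.58 CPM in S1pr2 shRNA livers 1 to 3, against 2.14, 0.766 and 1.85 CPM in scramble livers 1 to 3 (log2 fold change 1.51, SE 0.94, adjusted p in edgeR = 0.387). Without S1pr2 shRNA liver 1 the log2 fold changes were -1.18 for Saa1 (edgeR adjusted p = 0.101), -1.26 for Saa2 (0.133) and -0.18 for Saa3 (0.867), so those of Saa2 and Saa3 changed sign. Saa4, a constitutive member of the family, was at 175 ± 48.2 CPM in S1pr2 shRNA and 209.7 ± 86.1 CPM in scramble livers (SD, n = 3 each), with scramble liver 2 the highest (log2 fold change -0.26, SE 0.33, adjusted p in edgeR = 0.695). With Saa1 and Saa2 summed, which does not depend on how shared reads were split, the level was 124, 29.1 and 34.8 CPM in S1pr2 shRNA livers and 105, 57.3 and 57.2 CPM in scramble livers (log2 fold change -0.22, SE 0.63, edgeR adjusted p = 0.876).

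Of the pentraxins, ring-shaped proteins of innate immunity, Crp fell and Apcs did not pass. Crp (Entrez gene 12944) had 253.5, 267 and 260.4 CPM in S1pr2 shRNA livers 1 to 3, against 429.7, 379 and 389 CPM in scramble livers 1 to 3. The S1pr2 shRNA livers lay close together and all below the lowest scramble liver. The means were 260.4 ± 6.89 CPM in S1pr2 shRNA and 399 ± 26.8 CPM in scramble livers (SD, n = 3 each; log2 fold change -0.62, SE 0.12, adjusted p in edgeR = 0.0253). Its expected counts were fractional in all 6 libraries. The Crp call held without S1pr2 shRNA liver 1 (edgeR adjusted p = 0.0459) and was lost without S1pr2 shRNA liver 2 (0.101), S1pr2 shRNA liver 3 (0.0894), scramble liver 1 (0.0505), scramble liver 2 (0.0604) or scramble liver 3 (0.0697). On FPKM it just missed the threshold (limma adjusted p = 0.0531 and 0.0546 with pseudocounts of 0.1 and 1). Apcs, serum amyloid P, which is the main acute phase pentraxin of mice, was at 179 ± 22.0 CPM in S1pr2 shRNA and 212 ± 67.2 CPM in scramble livers (SD, n = 3 each; log2 fold change -0.24, SE 0.23, adjusted p in edgeR = 0.580).

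The orosomucoid genes encode alpha-1-acid glycoproteins, drug-binding plasma proteins whose genes are induced by glucocorticoids together with cytokines. All 3 were below 0 with every scaling tried; Orm3 fell and Orm1 and Orm2 did not pass. Orm3 (Entrez gene 18407) had 9.88, 10.5 and 11.6 CPM in S1pr2 shRNA livers 1 to 3, against 58.55, 26.6 and 24.2 CPM in scramble livers 1 to 3. Scramble liver 1 was the highest, and even the lowest scramble liver was above every S1pr2 shRNA liver. The means were 10.65 ± 0.851 CPM in S1pr2 shRNA and 36.4 ± 19.2 CPM in scramble livers (SD, n = 3 each; log2 fold change -1.78, SE 0.36, adjusted p in edgeR = 0.0402). Without scramble liver 1 the log2 fold change was -1.25 and still passed (edgeR adjusted p = 0.00777). The call was lost without S1pr2 shRNA liver 1 (0.114), 2 (0.139) or 3 (0.104) and without scramble liver 2 (0.0507), and also with no filter on low counts (0.0715).

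Orm1, the most abundant of the 3, had 948, 837 and 924 CPM in S1pr2 shRNA livers 1 to 3, against 1213, 1299 and 1682 CPM in scramble livers 1 to 3. The groups did not overlap, and scramble liver 3 was the highest (log2 fold change -0.63, SE 0.18, adjusted p in edgeR = 0.06985). Orm2 had 52.1, 17.9 and 27.2 CPM in S1pr2 shRNA livers 1 to 3, against 201, 50.25 and 258 CPM in scramble livers 1 to 3. It varied most of the 3, and scramble liver 2 fell within the S1pr2 shRNA range (log2 fold change -2.39, SE 0.72, adjusted p in edgeR = 0.113). Without scramble liver 2 it passed, at -2.84 on the log2 scale (edgeR adjusted p = 0.0412). It did not pass with any other single liver left out. Over all these fits its log2 fold change ran from -2.915 to -1.956, with edgeR adjusted p up to 0.2835. The coding sequences of the 3 genes are 86.4 to 89.9% identical and their counts were fractional in all libraries, so the split of reads between them is uncertain. Orm2 took 5.16, 2.07 and 2.82% of the orosomucoid CPM in S1pr2 shRNA livers 1 to 3 and 13.7, 3.65 and 13.2% in scramble livers 1 to 3. Orm3 took 0.977, 1.21 and 1.2% in S1pr2 shRNA livers 1 to 3 and 3.98, 1.93 and 1.23% in scramble livers 1 to 3. Its call depends on that split. Summed to 1 feature, the orosomucoids stood at 1010 CPM, 865 CPM and 963 CPM in S1pr2 shRNA livers and at 1472, 1376 and 1965 CPM in scramble livers. The sum fell (at -0.76 on the log2 scale with SE 0.18; edgeR adjusted p = 0.0462), and this call was lost whichever single liver was left out (adjusted p 0.0600 to 0.170).

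The Serpina3 genes, mouse relatives of human alpha-1-antichymotrypsin, lay below 0 for all 3 tested members with every scaling tried, and 1 of the 3 fell. Serpina3m (Entrez gene 20717) had 450.2, 569 and 581 CPM in S1pr2 shRNA livers 1 to 3, against 1224, 979 and 936 CPM in scramble livers 1 to 3. Its groups were well apart, with scramble liver 1 the highest. The means were 533 ± 72.2 CPM in S1pr2 shRNA and 1046 ± 155 CPM in scramble livers (SD, n = 3 each; log2 fold change -0.97, SE 0.18, adjusted p in edgeR = 0.0195). The Serpina3m call was lost without S1pr2 shRNA liver 2 (edgeR adjusted p = 0.0784) or S1pr2 shRNA liver 3 (0.0590) and held without each of the other 4 livers.

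Serpina3k had 20662, 23170.4 and 21843 CPM in S1pr2 shRNA livers 1 to 3, against 29259.5, 38466 and 30095 CPM in scramble livers 1 to 3. No S1pr2 shRNA liver reached the lowest scramble liver (log2 fold change -0.57, SE 0.21, adjusted p in edgeR = 0.135). Serpina3n, an inducible gene of the same cluster, was at 904.5 ± 165 CPM in S1pr2 shRNA and 1319 ± 236 CPM in scramble livers (SD, n = 3 each; log2 fold change -0.54, SE 0.20, adjusted p in edgeR = 0.148). Serpina3c had 2.27 to 9.32 counts in S1pr2 shRNA livers and 3.17 to 22.1 counts in scramble livers and was not tested. Coding sequences within this family were 83.5 to 92.0% identical, with counts fractional in every library. The summed family stood at 21830 CPM, 24769 CPM and 23390 CPM in S1pr2 shRNA livers and at 32075, 40650 and 32195 CPM in scramble livers, without overlap (log2 fold change -0.58, SE 0.20, edgeR adjusted p = 0.121; DESeq2 adjusted p = 0.00102). Serpina3k made up 93.4 to 94.6% of that sum in S1pr2 shRNA and 91.2 to 94.6% in scramble livers. Serpina3m made up 2.06, 2.3 and 2.48% of it in S1pr2 shRNA livers 1 to 3 and 3.82, 2.41 and 2.91% in scramble livers 1 to 3. Its coding sequence is 92.0% identical to that of Serpina3k. The split of reads between these genes is uncertain, and the Serpina3m call depends on it.

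The 5 Serpina1 genes, which encode the mouse alpha-1-antitrypsins, did not pass in edgeR (0 of 5, and 2 of 5 at an unadjusted p under 0.05). By DESeq2 0 of 5 passed, with adjusted p of 0.0534 or more. Serpina1b had 6549, 9729 and 8578 CPM in S1pr2 shRNA livers 1 to 3, against 10752, 14292 and 10831 CPM in scramble livers 1 to 3. The groups did not overlap (log2 fold change -0.53, SE 0.23, adjusted p in edgeR = 0.200). Serpina1e had 200.3, 300.5 and 255 CPM in S1pr2 shRNA livers 1 to 3, against 331, 437 and 318 CPM in scramble livers 1 to 3. Its highest S1pr2 shRNA liver, liver 2, was just under the lowest scramble liver (log2 fold change -0.52, SE 0.19, adjusted p in edgeR = 0.145). Serpina1c had 9311, 15704.5 and 13879 CPM in S1pr2 shRNA livers 1 to 3, against 9735, 22916 and 15765 CPM in scramble livers 1 to 3. In this gene scramble liver 1 was low and scramble liver 2 high, and the groups overlapped (log2 fold change -0.32, SE 0.34, adjusted p in edgeR = 0.632). Scramble liver 1 was low and scramble liver 2 high in Serpina1a too, with 5834.5, 10187 and 8782 CPM in S1pr2 shRNA livers 1 to 3, against 6109, 13789 and 9657 CPM in scramble livers 1 to 3 (log2 fold change -0.25, SE 0.33, adjusted p in edgeR = 0.707). Serpina1d was at 1462 ± 318 CPM in S1pr2 shRNA and 1845 ± 783 CPM in scramble livers (SD, n = 3 each; log2 fold change -0.34, SE 0.33, adjusted p in edgeR = 0.594). Coding sequences of these genes were 96.3 to 98.5% identical over the 10 pairs, and all had fractional counts in all libraries. Summed, they stood at 23025, 37685 and 32986 CPM in S1pr2 shRNA livers and at 27994, 54068 and 38406 CPM in scramble livers (log2 fold change -0.36, SE 0.30, edgeR adjusted p = 0.520).

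The inter-alpha-trypsin inhibitor heavy chains Itih3 and Itih4, which bind hyaluronan or circulate as acute phase proteins, did not pass, although neither overlapped between the groups. Itih4 had 1002, 1308 and 1371 CPM in S1pr2 shRNA livers 1 to 3, against 1784, 1600.0 and 2014 CPM in scramble livers 1 to 3 (log2 fold change -0.55, SE 0.19, adjusted p in edgeR = 0.113). Itih3 had 699, 786 and 765 CPM in S1pr2 shRNA livers 1 to 3, against 911, 1039 and 1370.1 CPM in scramble livers 1 to 3 (log2 fold change -0.56, SE 0.19, adjusted p in edgeR = 0.111). Their log2 fold changes were alike in size and both had whole counts in all libraries. Both passed in the DESeq2 Wald test.

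Fibrinogen, the clotting protein built of 3 chains, did not pass for any chain (0 of 3 at an adjusted or an unadjusted p under 0.05 in edgeR, 0 by DESeq2). Fga had a log2 fold change of -0.18 (SE 0.24), Fgb of -0.20 (SE 0.24) and Fgg of -0.27 (SE 0.24), with edgeR adjusted p of 0.542 to 0.706. For each chain scramble liver 1 was the lowest of the 6 livers and scramble liver 2 the highest.

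Among the proteins that bind haem, iron and copper, Steap4 rose and the abundant plasma proteins did not pass. Steap4 (Entrez gene 117167), an endosomal reductase of iron and copper that inflammation induces in liver, had 83.8, 67.7 and 61.1 CPM in S1pr2 shRNA livers 1 to 3, against 45.65, 41.2 and 42.85 CPM in scramble livers 1 to 3. Every S1pr2 shRNA liver lay above every scramble liver, with S1pr2 shRNA liver 1 the highest. The means were 70.9 ± 11.7 CPM in S1pr2 shRNA and 43.2 ± 2.25 CPM in scramble livers (SD, n = 3 each; log2 fold change 0.71, SE 0.13, adjusted p in edgeR = 0.0202). Its counts were whole in all libraries. The Steap4 call was lost without S1pr2 shRNA liver 2 (edgeR adjusted p = 0.0709), scramble liver 2 (0.0720) or scramble liver 3 (0.0701).

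Lcn2, lipocalin 2, which withholds iron from bacteria by binding their siderophores, had 232, 179 and 201.5 CPM in S1pr2 shRNA livers 1 to 3, against 1058, 312 and 322 CPM in scramble livers 1 to 3. Scramble liver 1 was far above the rest, yet all S1pr2 shRNA livers were under all scramble livers (log2 fold change -1.47, SE 0.51, adjusted p in edgeR = 0.1465). Without scramble liver 1 the log2 fold change was -0.64 (edgeR adjusted p = 0.0575). With any single liver left out it ran from -1.764 to -0.636, with edgeR adjusted p up to 0.336. Hp, haptoglobin, which binds free haemoglobin, had 3124.5, 3206 and 3115 CPM in S1pr2 shRNA livers 1 to 3, against 2936, 3305 and 3405 CPM in scramble livers 1 to 3. The S1pr2 shRNA livers lay inside the scramble range (log2 fold change -0.03, SE 0.16, adjusted p in edgeR = 0.935), and the interval of 2 SE around the Hp value ran from -0.35 to 0.29. Hemopexin (Hpx, log2 fold change -0.07, SE 0.20, adjusted p in edgeR = 0.877), which binds haem, and ceruloplasmin (Cp, -0.06, SE 0.17, edgeR adjusted p = 0.862), the copper ferroxidase, were also near 0, the counts of Cp being fractional in all libraries; on FPKM the values of Hp, Hpx and Cp were 0.12, 0.11 and 0.09.

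Lbp, which hands bacterial lipopolysaccharide to CD14, was at 171 ± 21.5 CPM in S1pr2 shRNA and 209 ± 16.1 CPM in scramble livers (SD, n = 3 each) without overlap (log2 fold change -0.29, SE 0.14, adjusted p in edgeR = 0.234), with fractional counts in all 6 libraries. Lrg1, a leucine-rich glycoprotein of the acute phase, was at 455 ± 20.3 CPM in S1pr2 shRNA and 548 ± 123 CPM in scramble livers (SD, n = 3 each), with scramble liver 1 above the rest (log2 fold change -0.27, SE 0.18, adjusted p in edgeR = 0.404).

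**Figure D3:**
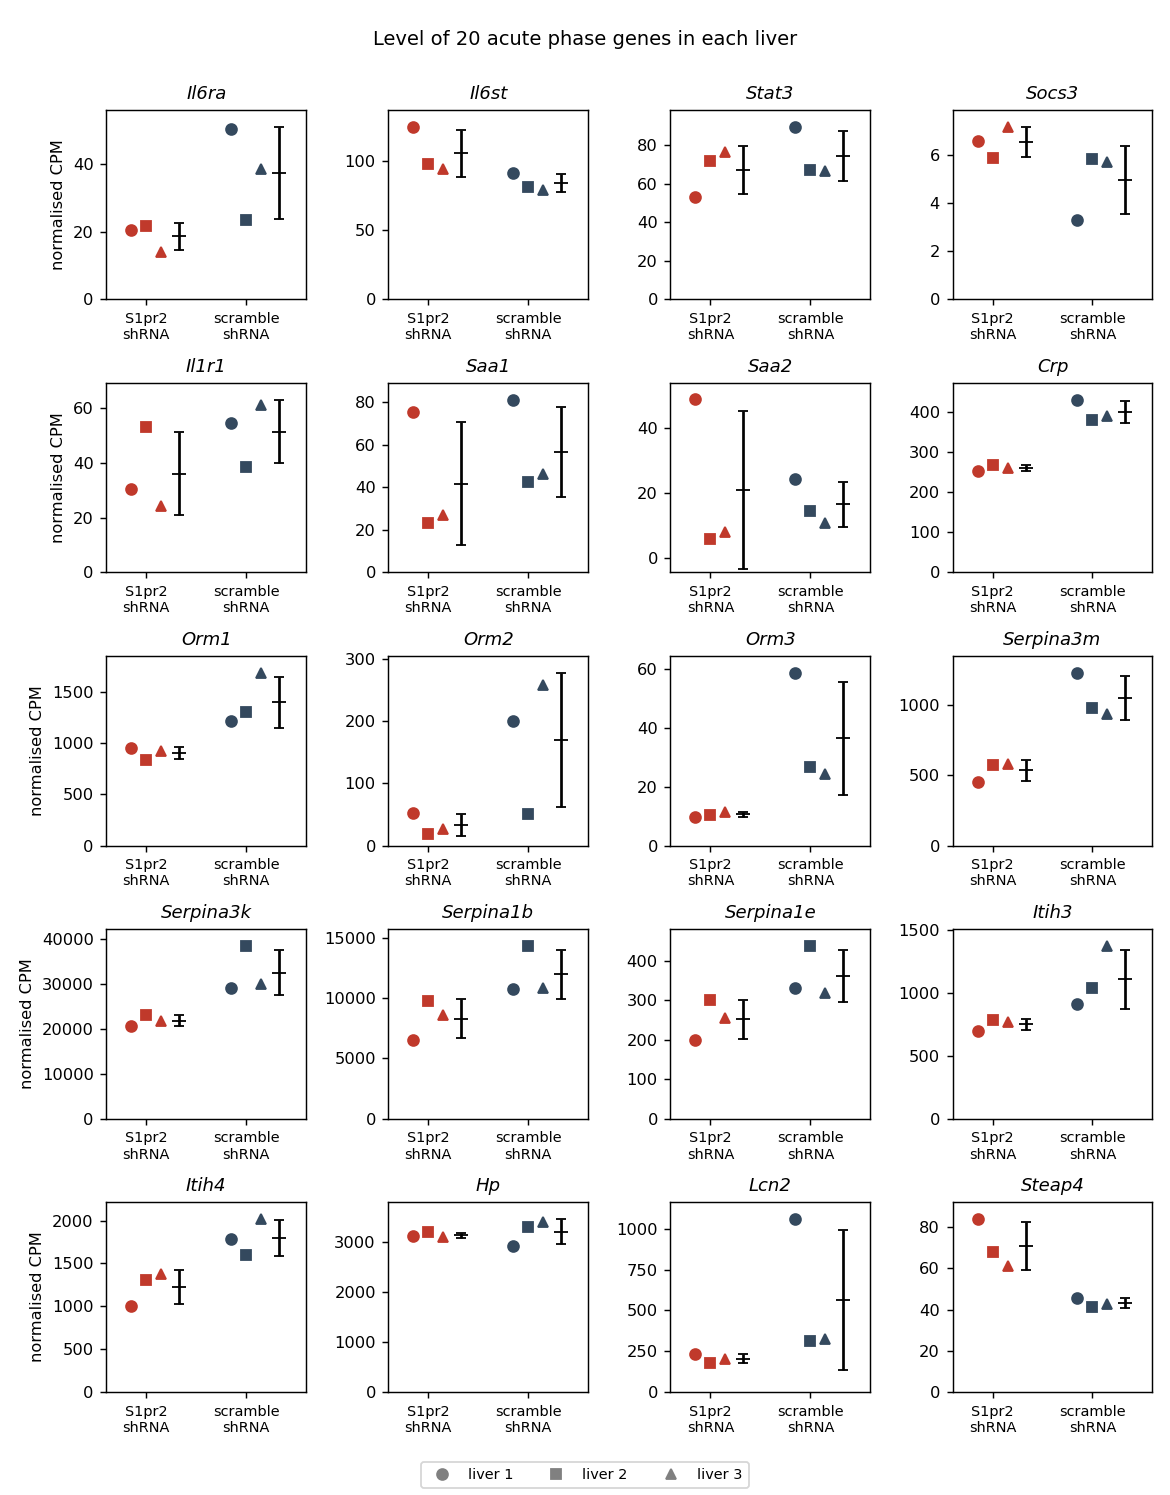
Normalised CPM (linear axes from 0, except Saa2, whose axis starts under 0 to hold the error bar) of 20 acute phase genes in each liver, with S1pr2 shRNA livers left of scramble livers and mean ± SD (n = 3 each) beside the points; symbols give the liver number. Crp, Orm3 and Serpina3m are lower and Steap4 higher in all S1pr2 shRNA livers, S1pr2 shRNA liver 1 is highest in Saa2, and scramble liver 1 is highest in Lcn2.

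The livers differed within groups. Relative to the mean log2 CPM of the scramble livers, the median over the tested acute phase genes was -0.55, -0.18 and -0.26 in S1pr2 shRNA livers 1 to 3 and -0.01, -0.07 and 0.05 in scramble livers 1 to 3. Over all tested genes the same median lay between -0.01 and 0.02 in each liver. S1pr2 shRNA liver 1 had the lowest median and at the same time the highest Saa2 and Saa3. By the mean over the same genes it was the least lowered of its group, at -0.311, against -0.37 and -0.432 in S1pr2 shRNA livers 2 and 3. The means of scramble livers 1 to 3 were 0.009, -0.037 and 0.028. With any single liver left out, the median log2 fold change over the acute phase genes tested in that fit (35 or 36) stayed between -0.47 and -0.26.

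**Figure D4:**
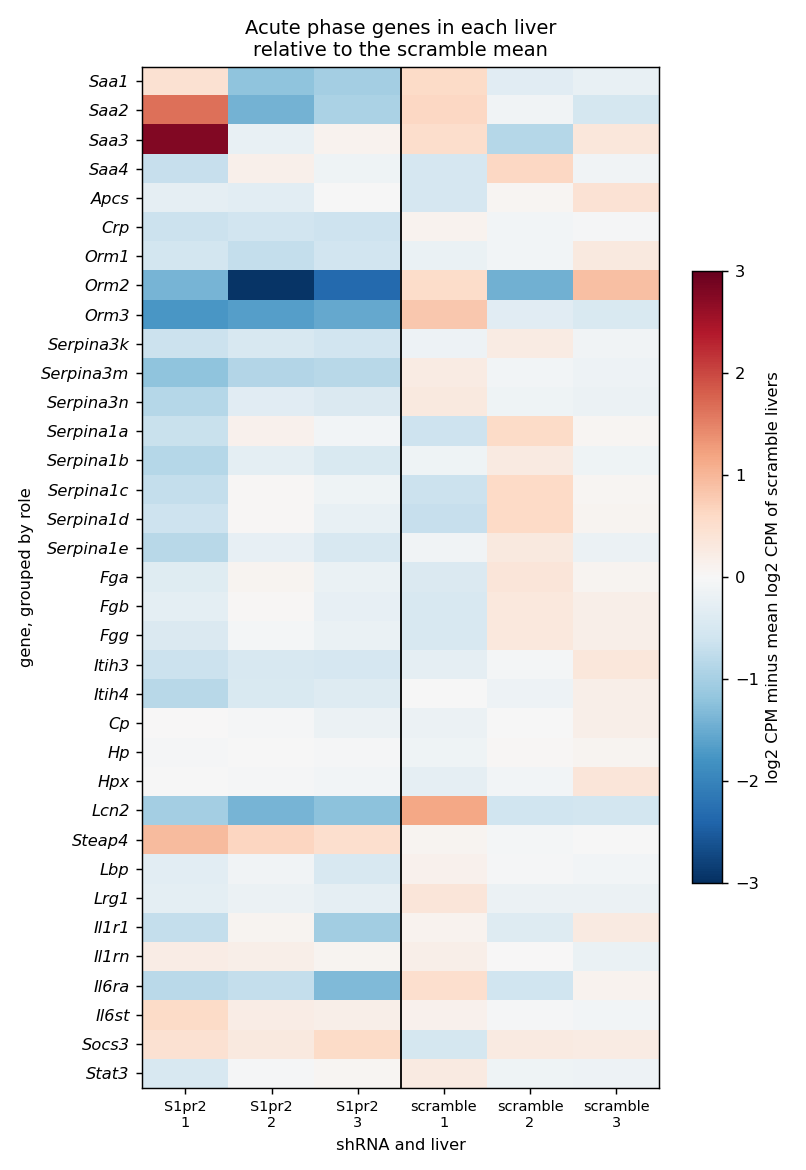
Log2 CPM of each tested acute phase gene (rows, by role) in each liver (columns) minus its mean over the scramble livers; red is above and blue below that mean, and the line parts S1pr2 shRNA from scramble livers. Orm2 and Orm3 are blue in all S1pr2 shRNA livers, Steap4 is red in all of them, and Saa1, Saa2 and Saa3 are red in S1pr2 shRNA liver 1.

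Other acute phase genes, outside the 36, did not share a direction. Of 32 tested further positive acute phase genes, among them complement and coagulation proteins, 0 passed in edgeR (2 above and 5 below 0 at an unadjusted p under 0.05; 1 rose and 3 fell by DESeq2), with a median log2 fold change of -0.04. Of 16 tested negative acute phase genes, whose plasma proteins drop in inflammation, 3 were above and 2 below 0 at an unadjusted edgeR p under 0.05. By DESeq2 3 rose and 2 fell. At the edgeR adjusted p 1 rose (3.02% of all genes did), 0 fell and 15 did not pass, with a median of -0.08. The riser was Serpina7, thyroxine-binding globulin, at 85.0 ± 32.5 CPM in S1pr2 shRNA and 18.3 ± 6.73 CPM in scramble livers (SD, n = 3 each; a log2 fold change of 2.22 with SE 0.38 and an edgeR adjusted p of 0.0253).

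In whole liver RNA, fewer cells of a type and less RNA per cell cannot be told apart, so marker levels of the liver cell types are given beside the acute phase genes. All 12 hepatocyte markers were abundant, as the tissue label says, the lowest group mean being 401 CPM. Of these, 0 passed in edgeR (3 below 0 and 1 above at an unadjusted p under 0.05; 3 fell and 1 rose by DESeq2), and 11 of 12 were below 0, with a median log2 fold change of -0.30, close to the -0.29 of the acute phase genes. Their summed level was 81166, 118447 and 116023 CPM in S1pr2 shRNA livers 1 to 3, against 134260 CPM, 136685 CPM and 154991 CPM in scramble livers 1 to 3. Most of this sum was Alb, at 56835, 84021 and 85603 CPM in S1pr2 shRNA and 103256, 108503 and 129028 CPM in scramble livers. The 1 marker above 0 was Apoa1 (log2 fold change 1.08, edgeR adjusted p = 0.199). The part of hepatocyte RNA in the lower acute phase values was not tested. Among 12 endothelial markers there were 6 that rose, where 3.02% of all genes did, and 0 that fell (8 above and 0 below 0 at an unadjusted edgeR p under 0.05; 0 fell by DESeq2), with a median of 0.45; the summed level was 301 to 328 CPM in S1pr2 shRNA and 230 to 251 CPM in scramble livers. Tie1 (log2 fold change 0.73), Kdr (0.57), Cdh5 (0.49) and Fcgr2b (0.81) were those with the smallest p; Lyve1, named after its values were seen, was the 1 marker below 0 (-0.83, edgeR adjusted p = 0.2275).

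Of 16 Kupffer cell and macrophage markers 0 passed in edgeR (1 at an unadjusted p under 0.05; 1 rose by DESeq2), with 15 above 0 and a median of 0.54. Their summed level was 607, 291 and 290 CPM in S1pr2 shRNA livers and 193, 209 and 461 CPM in scramble livers. The sum of 11 stellate cell markers was 617, 344 and 367 CPM in S1pr2 shRNA livers 1 to 3, against 228, 341 and 562 CPM in scramble livers 1 to 3. S1pr2 shRNA liver 1, with the highest Saa2 and Saa3, was the highest in both sums. Scramble liver 1 was the lowest in both sums and had the highest Saa1 of all livers (81.1 CPM). Scramble liver 3 was the highest scramble liver in both sums and the lowest scramble liver in Saa2 (10.8 CPM). The part of these cells in the serum amyloid A values was not tested. Of the stellate list 0 passed (1 at an unadjusted edgeR p under 0.05, 0 by DESeq2). Neutrophil markers were near 0: they summed to 7.91 to 11.6 CPM in S1pr2 shRNA and 5.39 to 11.0 CPM in scramble livers over 14 symbols, Ly6g and Camp were not listed, and Mpo averaged 0.0169 CPM in S1pr2 shRNA and 0 CPM in scramble livers. Of the 4 neutrophil genes tested 0 passed, also at an unadjusted edgeR p under 0.05. Of 11 lymphocyte markers 1 was tested, Cd4, which rose, where 3.02% of all genes did (log2 fold change 2.94, edgeR adjusted p = 0.0402). The list summed to 4.96, 11.9 and 7.03 CPM in S1pr2 shRNA livers 1 to 3 and 0.858 to 2.30 CPM in scramble livers. Most of the sum in S1pr2 shRNA livers was Cd4 itself, at 3.95, 9.98 and 5.62 CPM. The T cell gene Cd3e had 1, 6 and 1 counts in S1pr2 shRNA livers 1 to 3 and 0, 1 and 0 in scramble livers 1 to 3. Cd3g had 0, 0 and 4 counts against 0, 1 and 2.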

How the data were processed

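RNA-seq libraries were made from total RNA of 6 frozen livers and read on a DNB sequencer. RSEM 1.2.12, HISAT2, Bowtie2, DESeq2 and build mm9 are named in the submitters' processing notes; their roles, the strand handling and the hairpin sequence were not found in the labels. The deposited tables give expected counts per gene, which RSEM estimates and need not be whole, and FPKM, which the authors scaled to transcript length and depth. Without strand handling, overlapping genes on opposite strands cannot be separated. Expected counts of 20 of the 36 genes were fractional in all 6 libraries, of Il6st in 1 and of 15 in none (tolerance 0.001). Rows without a symbol held 0.204 to 0.255% of the counts and were kept under their ID.

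Expected counts were rounded, filtered with filterByExpr (minimum count 10, 12230 genes), scaled by TMM (factors 1.15, 0.987 and 1.03 in S1pr2 shRNA livers 1 to 3 and 0.968, 0.924 and 0.957 in scramble livers 1 to 3) and compared with the robust quasi-likelihood F test of edgeR 4.0.16 in R 4.3.3, two-sided, with Benjamini-Hochberg adjustment over all genes tested. The common biological coefficient of variation was 20%. SEs were derived from that test's p. CPM is the expected count scaled to the TMM-adjusted library size. The 4 paralog families were also summed to 1 feature each and refitted over 12221 features; families and coding sequence identity (GENCODE M21 transcripts, Biopython 1.88) follow gene names. The scripts were tested on simulated data. Alternatives were other scalings, filters and tests (DESeq2 1.42.0, voom and limma 3.58.1, log2(FPKM + 0.1) and log2(FPKM + 1) for genes with a mean of at least 0.1 FPKM), a replicate block, and each liver left out. Fold changes on the FPKM scales understate the change of low genes.

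The members and lists were chosen with earlier results of these data known. Values in every liver are given for called genes, the 8 with the smallest p among those not called, the 5 with the highest FPKM, and Il6ra, Il6st, Stat3, Socs3, Il1r1, Saa1 and Saa2; of other lists, at most 4 members past the test. Lists share genes: S100a8 and S100a9 are in the positive acute phase and neutrophil lists, and Alb, Apoa1 and Ttr in the hepatocyte and negative acute phase lists. With 3 livers against 3, an exact permutation test cannot go below p = 0.1, so none is given.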

Additional observations from a re-analysis of the deposited data

How the results depend on the processing

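Of the acute phase genes called lower (3 by edgeR), the DESeq2 Wald test gave 10, adding Orm1, Orm2, Serpina3k, Serpina3n, Itih3, Itih4 and Il6ra; leaving out 1 liver gave 0 to 3 lower and 0 to 1 higher. The median log2 fold change of the acute phase genes tested in each fit was -0.47 to -0.26 with 1 liver left out and -0.12 on both FPKM scales, where the median of all genes was 0.16 and 0.10. Over all genes, edgeR called 369 higher and 568 lower, upper-quartile factors 506 and 476, DESeq2 616 and 850, FPKM + 0.1 570 and 254, FPKM + 1 551 and 243, and with 1 liver left out 78 to 266 and 153 to 377. Replicate numbers were shared between groups. Over all tested genes, deviations of same-numbered livers correlated at -0.06, 0.22 and -0.12, which cannot settle whether the numbers pair the livers. With the number as a replicate block, the SE of the Saa1 and Saa2 sum was 0.257 (0.634 without the block). That of the Serpina1 sum was 0.195 (0.304 without it) and that of S1pr2 0.27 (0.237 without it). With this block 1 acute phase gene, Serpina3m, was lower, and Crp (edgeR adjusted p = 0.0583) and Orm3 (0.0718) lost their call. S1pr2 then stood at -1.12 (adjusted p = 0.0684), the Orm sum at -0.75 (0.0656) and Saa2 at -0.17. S1pr2 also missed the threshold on FPKM + 0.1 (-0.90, limma adjusted p = 0.0677) and FPKM + 1 (-0.54, 0.0684) and ranged from -1.29 to -0.95 with 1 liver left out. The Orm sum missed it with upper-quartile factors (-0.70, edgeR adjusted p = 0.0686), without the robust option (-0.76, 0.0502) and on both FPKM scales (-0.60, limma adjusted p 0.130 and 0.133), and ranged from -0.86 to -0.59. The Serpina3 sum passed in DESeq2 (-0.58, adjusted p = 0.00102). Saa1 and Saa2 summed changed sign, ranging from -1.2 to 0.13 with 1 liver left out. Among genes that were never called, the log2 fold change changed sign for Hp (0.030 with upper-quartile factors, 0.121 on both FPKM scales, -0.092 to 0.011), Hpx (0.105 on FPKM, -0.199 to 0.137), Cp (0.089 on FPKM, -0.144 to 0.034), Saa2 (-0.185 with voom, -0.101 on FPKM + 0.1, -0.078 on FPKM + 1, -1.262 to 0.791), Saa3 (-0.180 to 1.947), Saa4 (-0.483 to 0.102), Stat3 (-0.265 to 0.002), Serpina1a (-0.504 to 0.054) and Serpina1c (-0.577 to 0.009); ranges are with 1 liver left out. Over all alternatives adjusted p ran from 1.45e-06 to 0.101 for Crp, 4.12e-06 to 0.139 for Orm3, 6.88e-07 to 0.0784 for Serpina3m and 0.000393 to 0.0720 for Steap4. The causes of these shifts were not tested, and depth limits the values of low genes such as Il6, Osm and Serpina3c.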
